A study of Rattus norvegicus with 232 samples.

Results

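Mitochondrial DNA encodes a small set of subunits of the respiratory chain, and 10 of those genes are described here in rat brain: Mt-nd1, Mt-nd2, Mt-nd4, Mt-nd5 and Mt-nd6 of complex I, Mt-cyb of complex III, Mt-co1, Mt-co2 and Mt-co3 of complex IV, and Mt-atp6 of complex V. The genes were chosen by name and by their position on chromosome MT, not by a measured value. They make up 10 of 18385 genes in the deposited table of Ensembl 96 genes (the Ensembl table) and 10 of 99376 features in the table of genes rebuilt from the reads (the reconstruction table), both of the processing version called v5 by the authors. In the reconstruction the annotation gave the symbol of a listed gene to the feature of Mt-nd6 alone, so the other 9 features were matched by their coordinates. Several features there carry the name of Mt-nd6, and the one at the gene's own coordinates was taken after values had been seen.

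The study measured total RNA of brain from untreated inbred rats of the Hybrid Rat Diversity Panel, in stranded libraries made after removal of ribosomal RNA. The Ensembl table holds 132 libraries of 45 strains, with 3 animals in 42 strains and 2 animals in 3 strains. They come from 11 sequencing batches, counted by the batch field of the labels, and the study's methods state fewer. The strains are 20 HXB and 10 BXH recombinant inbred strains, their progenitors SHR/OlaIpcv and BN-Lx/Cub, and 13 other classic inbred strains. Every sample is labelled male and whole brain, and the labels name no transgene and no agent. Per the study's methods the rats were young adults and a single side of each brain was sequenced. The HXB, BXH and progenitor rats were kept at an institute in Prague, and their brains were shipped in liquid nitrogen. The other 13 strains came from vendors and their brains were put into RNAlater. Strain therefore cannot be told apart from source and storage between these groups. HXB and BXH name reciprocal crosses between the progenitors, each followed by inbreeding, so that an HXB or BXH strain is a fixed mosaic of both nuclear genomes. A strain is a single inbred line, and its animals repeat 1 genotype. The reconstruction table holds 135 libraries of the same strains, 3 animals a strain, in 13 batches. A later deposited version (v6) holds 89 libraries of the HXB and BXH strains, and a further one (v7.1) adds 12 LEXF and 7 FXLE strains, another recombinant inbred family.

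The respiratory chain passes electrons from NADH to oxygen and pumps protons across the inner mitochondrial membrane, and ATP synthase (complex V) uses the proton gradient to make ATP. Its subunits come from both genomes: most are nuclear genes, and a core of membrane subunits is mitochondrial. Mitochondrial DNA passes through the mother and is transcribed on both strands into long precursors, which are cut into separate RNAs largely at the transfer RNAs between the genes. Mt-nd6 is the protein gene on the strand opposite to all others. Brain depends strongly on this pathway, and mitochondrial messenger RNAs are among its most abundant RNAs. In whole brain, fewer cells of a type and less RNA per cell cannot be told apart.

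Coordinates below are those of the rn6 annotation of the reconstruction, on chromosome MT. The complex I genes lie at 2740 to 3694 (Mt-nd1), 3904 to 4942 (Mt-nd2), 10160 to 11537 (Mt-nd4) and 11736 to 13565 (Mt-nd5) on the plus strand. Mt-nd6 (ENSRNOG00000029042) lies at 13543 to 14061 on the minus strand, so its end overlaps that of Mt-nd5 on the other strand. Mt-cyb lies at 14136 to 15278. The complex IV genes lie at 5323 to 6867 (Mt-co1), 7006 to 7689 (Mt-co2) and 8599 to 9382 (Mt-co3), and Mt-atp6 lies at 7919 to 8599, next to Mt-co3. Each of these features was a single uninterrupted transcript.

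All values are on the regularized log2 scale of the authors, on which 1 unit is a doubling. The reconstruction tables also hold values over 30, which no log2 count reaches, so a unit there may not be a doubling. Library medians over all genes lay between 8.76 and 8.88 in the Ensembl table, and depth is unknown because no counts were used. No libraries held identical values. Of the 132 libraries, 127 were closest to their own strain over 1000 genes and 5 were not. The libraries labelled LEW/Crl 1 to 3 and HXB17/Ipcv 2 are labelled male but had Kdm5d, a Y-linked gene, at 8.33 to 8.70, whereas the other 128 libraries had it at 10.44 to 11.20. The 5 closest to another strain are labelled F344/NCrl 1 to 3, HXB3/Ipcv 1 and SHRSP/A3NCrl 1. F344/NCrl 1 and 3 were closest to F344/NHsd, and HXB3/Ipcv 1 to HXB15/Ipcv. F344/NCrl 2 was closest to SHRSP/A3NCrl, and SHRSP/A3NCrl 1 to F344/NCrl. Liver markers averaged 15.5 in the library labelled LE/Stm 3, 11.5 and 11.4 in F344/Stm 2 and 3, and 9.46 in SHR/OlaIpcv 1, against a median library of 6.51.

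In the Ensembl table the transcripts were very abundant, and their order was nearly fixed. Corrected for gene length (log2 level per kilobase, mean of 132 libraries), Mt-co1, the catalytic subunit of cytochrome c oxidase, was the highest at 18.76. The other core subunits of complex IV followed, with Mt-co3 at 17.75 and Mt-co2 at 17.46, and the proton channel subunit Mt-atp6 was at 17.11. Mt-nd1, of the membrane arm of complex I, was at 16.13, and Mt-cyb, cytochrome b, at 15.76. The remaining complex I transcripts formed the lower end, with Mt-nd2 at 14.35, Mt-nd4 at 14.02, Mt-nd5 at 13.49 and Mt-nd6 at 12.10. Each neighbouring pair in this order held it in at least 118 of the 132 libraries. The pair with the fewest was Mt-nd5 over Mt-nd6, and Mt-co1 over Mt-co3, Mt-atp6 over Mt-nd1 and Mt-cyb over Mt-nd2 held in all 132. The 3 complex IV subunits and Mt-atp6 were thus above every complex I transcript in the mean in that table, and Mt-nd1 and Mt-cyb lay between them and the other complex I transcripts. In the reconstruction the order differed: per kilobase Mt-co3 was highest at 17.31, followed by Mt-co2 at 16.62, Mt-atp6 at 16.48 and Mt-nd1 at 15.85, and Mt-co1, at 15.17, was below this complex I transcript.

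Of the 10 transcripts Mt-nd6 had the highest share of its variance among animals lying between strains. This share (strain R2) was 0.832 for Mt-nd6, at the 97.9th percentile of all genes, and its strain means ran from 10.04 in BXH11/Cub to 12.51 in SHR/OlaIpcv. For the other 9 transcripts strain R2 was between 0.415 (Mt-co1) and 0.533 (Mt-co3), close to the median of 0.491 over all genes; with 45 strains and 132 animals a gene with no strain effect is expected at 0.336. By limma's F test 9 of the 10 transcripts differed between strains at a false discovery rate of 0.05, and 63.8% of all genes did. The exception was Mt-co1 (adjusted p = 0.104), whose strain means spanned 19.07 in HXB5/Ipcv to 19.76 in F344/Stm. Source and storage of the brains differed between groups of strains, and their part in the strain differences was not tested. With sequencing batch in the model, Mt-nd6 (adjusted p = 1.14e-09) and Mt-nd1 (adjusted p = 0.0225) were still called, 2 of 10 against 41.1% of all genes. Leaving out all animals of 1 replicate number left between 1 and 8 of the transcripts called, the lowest count being without replicate 2, where 35.4% of all genes were called, and the next, 4, without replicate 3, where 42.9% were. In the reconstruction, 9 of the 10 features were called for strain, against 36.7% of all features, and 4 were with batch in the model, against 18.8%. Mt-nd6 again had the highest strain R2 of the 10 there, 0.768. Without the libraries labelled LEW/Crl 1 to 3 and HXB17/Ipcv 2, 8 transcripts were called for strain in the Ensembl table and 9 in the reconstruction, and strain R2 of Mt-nd6 was 0.834 and 0.767. Without the 5 libraries closest to another strain, or without those labelled as the 4 highest in liver markers, the counts were likewise 8 and 9, and strain R2 of Mt-nd6 lay between 0.765 and 0.834. The liver markers were measured in the Ensembl table, and in the reconstruction the library labelled SHR/OlaIpcv 1 is another one, of batch 6 in place of batch 11. The transcript that lost its call in the Ensembl table was Mt-co2 each time (limma adjusted p = 0.0466 with all libraries), and it lost it too without LE/Stm 3, F344/NCrl 2 and SHRSP/A3NCrl 1 (adjusted p = 0.0653).

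Among the 45 strains, Mt-nd6 separated the recombinant inbred strains by the direction of their cross. SHR/OlaIpcv was highest at 12.51, followed by HXB17/Ipcv at 12.32. The HXB strain with the lowest mean, HXB3/Ipcv, was at 11.06 and ranked 24th of 45, and the highest BXH strain, BXH12/Cub, was at 10.56 and ranked 32nd. The 20 HXB strains therefore lay wholly above the 10 BXH strains; the families did not overlap for 0.0598% of all genes. In the later processing version v6 they did overlap for Mt-nd6, and its difference of 0.60 did not pass the test (limma adjusted p = 0.998). Among classic strains WKY/NCrl was at 11.80, LEW/Crl at 11.29, SHRSP/A3NCrl at 11.09, BN-Lx/Cub at 10.70 and DA/OlaHsd at 10.60. The lowest classic strains, with means close to those of BXH strains, were SR/JrHsd and SS/JrHsd, both at 10.27, F344/NHsd at 10.21 and F344/Stm at 10.19 (9.91 in F344/Stm 1 alone). Neighbours in this order did not differ beyond their spread: the widest gap of the 44 pairs was 0.24, and the standard error of a difference between means of 3 animals was 0.323.

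**Figure D1:**
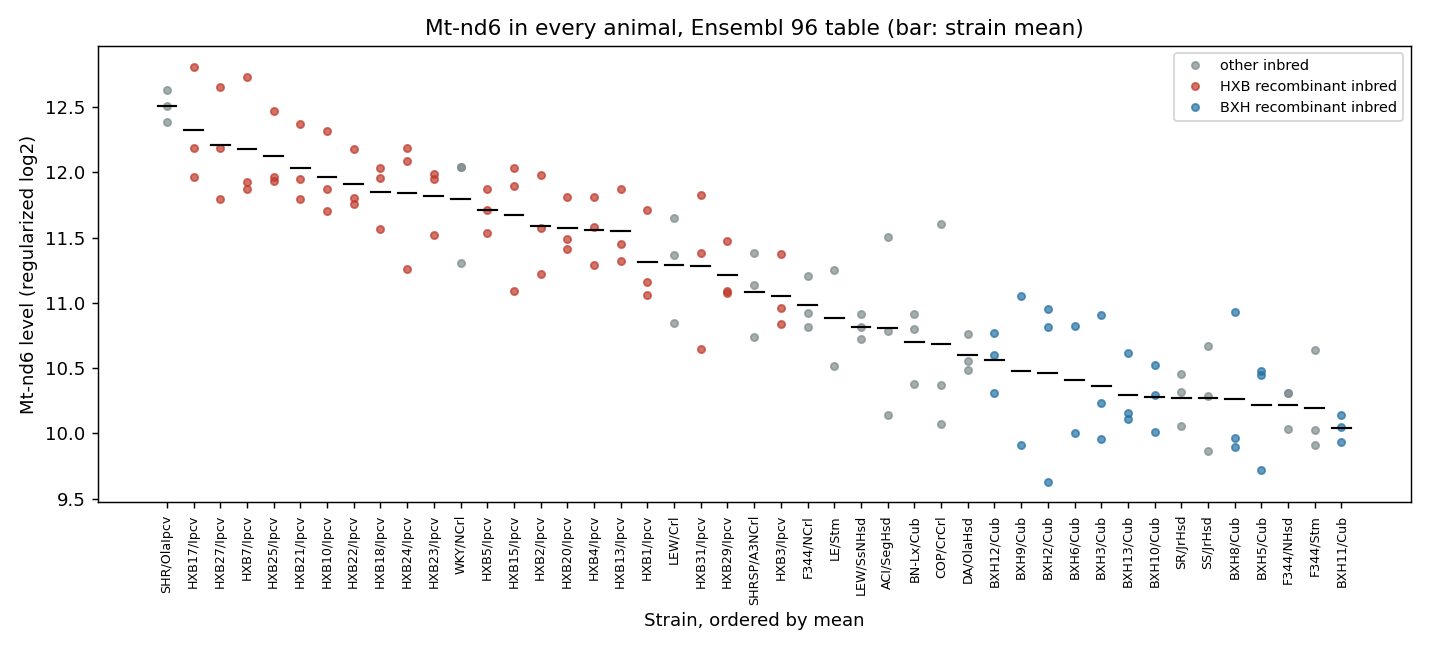
Mt-nd6 level (regularized log2, Ensembl table) in each animal (points) and each strain mean (horizontal bars), with the 45 strains in order of their mean and coloured by family. HXB strain means lie between 11.06 and 12.32, BXH strain means between 10.04 and 10.56, and classic inbred strain means between 10.19 and 12.51.

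The direction of the cross was tested on strain means, 20 HXB against 10 BXH. The label of every HXB strain ends in Ipcv and that of every BXH strain in Cub. The test compares the families as wholes, so mitochondrial DNA cannot be told apart from anything else that differs between them. Mt-nd6 was at 11.74 ± 0.35 (SD, n = 20 strains; lowest 11.06, median 11.76, highest 12.32) in HXB and at 10.34 ± 0.15 (SD, n = 10; lowest 10.04, median 10.33, highest 10.56) in BXH. HXB exceeded BXH by 1.40 on the log2 scale (95% interval 1.17 to 1.63), which is 2.64-fold, with an adjusted p of 3.47e-09 by limma with Benjamini-Hochberg adjustment. Of all 18385 genes Mt-nd6 had the smallest p in this comparison. By single animals the ranges met: the 60 HXB animals ran from 10.65 to 12.81 with a median of 11.81, and the 28 BXH animals from 9.63 to 11.05 with a median of 10.27. Without the library labelled HXB17/Ipcv 2 the difference was 1.39, and without HXB3/Ipcv 1 it was 1.40.

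Among the other 9 transcripts, Mt-co3 was also called in this comparison, so that 2 of the 10 were called where 13.9% of all genes were. Mt-co3 was at 17.41 ± 0.19 (SD, n = 20) in HXB and 17.14 ± 0.14 (SD, n = 10) in BXH, a difference of 0.27 (95% interval 0.14 to 0.40, limma adjusted p = 0.00544). The HXB strains ran from 17.06 to 17.69 and the BXH strains from 16.89 to 17.37, and so overlapped. The rest of the transcripts did not pass the test. Within complex I the differences were 0.11 for Mt-nd1 (95% interval -0.17 to 0.38), -0.07 for Mt-nd2 (-0.44 to 0.31), 0.08 for Mt-nd4 (-0.24 to 0.40) and -0.12 for Mt-nd5 (-0.44 to 0.19). Mt-cyb differed by 0.16 (-0.05 to 0.37), Mt-co1 by 0.02 (-0.07 to 0.11), Mt-co2 by 0.13 (-0.01 to 0.27) and Mt-atp6 by -0.10 (-0.32 to 0.12). Each of these 8 intervals excludes a difference as large as that of Mt-nd6. The median difference was 0.10 over the 10 transcripts and 0.0025 over all genes. Relative to the mean of the 9 plus-strand transcripts of the same strain, Mt-nd6 was lower by 4.34 ± 0.42 log2 units in HXB and by 5.69 ± 0.25 in BXH (SD over strains, n = 20 and 10).

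**Figure D2:**
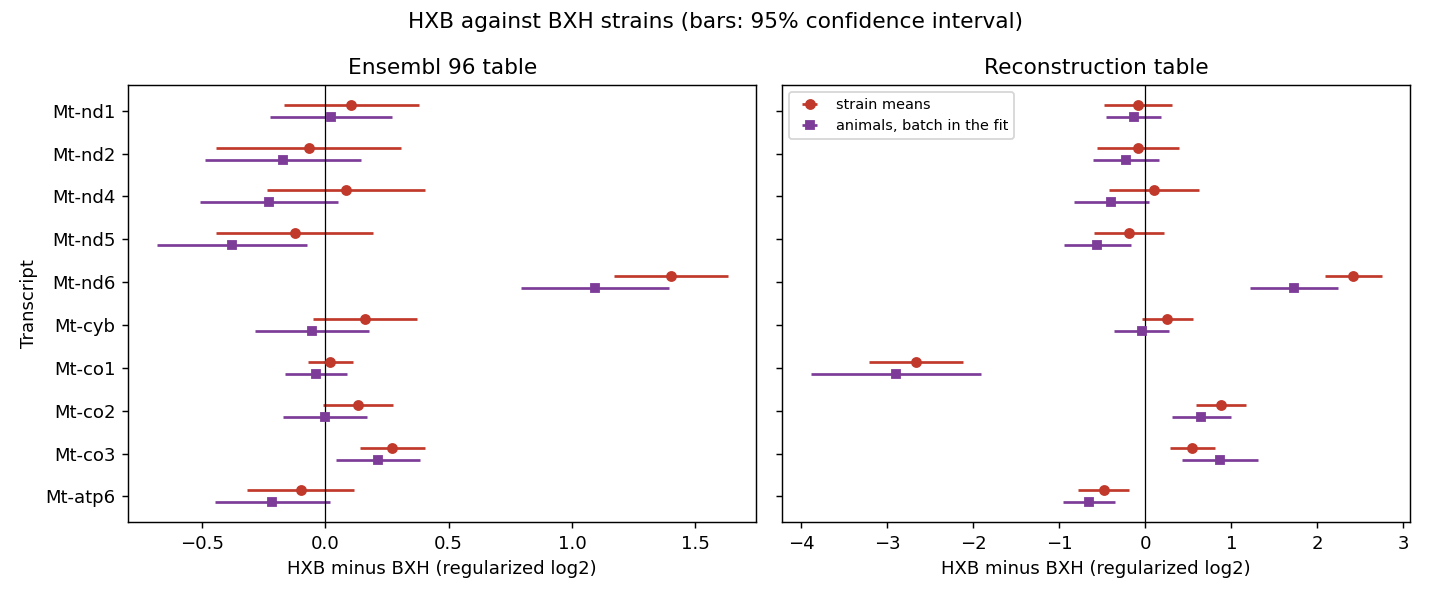
Difference between HXB and BXH strain means (log2, HXB minus BXH) for each of the 10 transcripts in the Ensembl and the reconstruction table, from strain means (circles) and from animals with batch in the model (squares), with 95% intervals as bars. In the Ensembl table Mt-nd6 lies at 1.40, and Mt-co1 lies at 0.02 there but at -2.67 in the reconstruction table.

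The families were sequenced in different batches, so the difference was also taken within batches. With animals as units, strain as a random block and batch in the model, Mt-nd6 was higher in HXB by 1.09 (95% interval 0.79 to 1.40, limma adjusted p = 4.58e-06), and Mt-co3 by 0.21 (0.04 to 0.38), which did not pass (adjusted p = 0.109). In that model 1 of 10 transcripts and 7.36% of all genes were called. In each of the 5 batches that held both families the HXB mean of Mt-nd6 was higher. The difference was 1.57 in batch 1 (12 HXB and 2 BXH libraries), 1.39 in batch 6 (17 and 3) and 0.91 in batch 10 (2 and 3). It was 0.60 in batch 2 (14 and 1), where the single BXH library at 10.95 lay just below the lowest HXB library at 10.96, and 0.63 in batch 7 (2 and 6), where the BXH libraries, from 9.63 to 10.91, overlapped those of HXB at 10.65 and 11.09. Batch 5 held 13 HXB libraries and no BXH library, and batch 3 held 13 BXH libraries and no HXB library. The 5 batches with both families share strains and are not independent. HXB29/Ipcv and HXB31/Ipcv gave the HXB libraries of both batch 7 and batch 10, and BXH2/Cub was in batches 2, 7 and 10.

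The progenitors of these strains also differed in Mt-nd6. Mt-nd6 was at 10.38, 10.80 and 10.91 in the BN-Lx/Cub animals and at 12.38, 12.51 and 12.63 in the SHR/OlaIpcv animals, without overlap. BN-Lx/Cub was lower by 1.81 on the log2 scale (95% interval of BN-Lx/Cub minus SHR/OlaIpcv -2.44 to -1.18, limma adjusted p = 3.02e-05), and the difference was -1.45 with batch in the model (adjusted p = 0.0011; 1 of 10 transcripts and 3.46% of all genes called). Without the library labelled SHR/OlaIpcv 1 it was -1.87 (limma adjusted p = 0.000222). The progenitors shared only batch 6, with 1 library each, so the fit with batch rests largely on other strains. Mt-nd6 was the 1 transcript of 10 called here, where 4.35% of all genes were. For the other 9 transcripts, none of which passed the test, BN-Lx/Cub minus SHR/OlaIpcv lay between -0.82 (Mt-nd5) and -0.18 (Mt-atp6). Without SHR/OlaIpcv 1 the differences of most of them were smaller: Mt-nd2 went from -0.71 to -0.13, Mt-nd1 from -0.74 to -0.29, Mt-nd5 to -0.41, and Mt-atp6 was at 0.10, with the sign turned. Mt-co1 went from -0.22 to -0.15, and Mt-co3 hardly moved (-0.20 and -0.19). The interval of Mt-cyb was -1.44 to -0.08 before adjustment over genes (adjusted p = 0.229). Of 5 oligodendrocyte markers 2 were higher in BN-Lx/Cub, Mobp by 0.80 (adjusted p = 0.0022) and Mog by 0.39 (adjusted p = 0.0163), where 2.36% of all genes were, and both kept their calls without SHR/OlaIpcv 1. Mean levels of the list were 14.79 to 14.92 in BN-Lx/Cub and 14.44 to 14.61 in SHR/OlaIpcv. Of 4 liver markers 0 were called by limma and 1 had an unadjusted p under 0.05, as had 16.8% of all genes; their median difference was -1.61, and -0.47 without SHR/OlaIpcv 1. The part of these cell types in the Mt-nd6 difference was not tested.

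In the reconstruction, 4 of the 10 features differed between HXB and BXH, where 0.534% of all features did: 3 were higher in HXB, against 0.3% of all features, and 1 was lower, against 0.234%. Mt-nd6 was at 11.18 ± 0.44 in HXB (SD, n = 20; lowest 10.34, highest 11.80) and at 8.76 ± 0.40 in BXH (SD, n = 10; lowest 8.08, highest 9.27), a difference of 2.42 (95% interval 2.09 to 2.75, limma adjusted p = 1.47e-11). Mt-co1 went the other way and was the 1 feature of the 10 that was lower in HXB. It was at 14.93 ± 0.85 in HXB (lowest 13.42, highest 16.20) and at 17.60 ± 0.25 in BXH (lowest 17.16, highest 17.95), a difference of -2.67 (-3.21 to -2.12, limma adjusted p = 2.16e-07). Part of this size came from libraries at a shared lowest value of 10.94 (within 0.01): 8 of the 60 HXB libraries and 0 of the 30 BXH libraries had it, and the next lowest library was at 11.18. What this value stands for is not given in the sources used here, so the difference was also taken without all 10 libraries that had it. HXB was then at 15.56 ± 0.57 (SD, n = 20; lowest 14.59, highest 16.80), still below every BXH strain, and the difference was -2.04 (adjusted p = 2.38e-08). HXB and BXH strain means did not overlap for either feature, as for 0.0171% of all features.

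The Mt-co1 difference was absent from the Ensembl table, where HXB was at 19.36 ± 0.12 and BXH at 19.34 ± 0.12 (SD over strains). In the reconstruction the HXB mean was lower in all 5 batches with both families, which share strains and are not independent. Without libraries at the shared lowest value, which took 5 of the 12 HXB libraries of batch 1, the difference lay between -1.18 (batch 6, 17 and 3 libraries) and -3.25 (batch 1, 7 and 2). BN-Lx/Cub was at 18.23 and SHR/OlaIpcv at 16.52 in the reconstruction, a difference that did not pass the test (1.71, 95% interval -0.71 to 4.14, limma adjusted p = 0.789). Mt-co2, at 16.18 in HXB and 15.30 in BXH (difference 0.88, 0.59 to 1.17, adjusted p = 0.00124), and Mt-co3, at 17.17 and 16.62 (0.55, 0.28 to 0.81, adjusted p = 0.0401), were also higher in HXB. The call of Mt-co3 rested on the library labelled BXH2/Cub 1, which with 2 libraries of classic strains had a shared lowest value of 11.99, where the next lowest library was at 15.83; without those 3 libraries the difference was 0.37 and did not pass (adjusted p = 0.0731). With batch in the model, where 0.115% of all features were called, Mt-nd6 (1.73, adjusted p = 1.45e-05) and Mt-co1 (-2.90, adjusted p = 0.000516) kept their calls, Mt-co2 (0.65, 95% interval 0.31 to 1.00, adjusted p = 0.0990) and Mt-co3 (0.87, 0.43 to 1.31, adjusted p = 0.0808) did not pass, and Mt-atp6 was called lower in HXB (-0.65, adjusted p = 0.0476; adjusted p = 0.114 without the libraries at the lowest value of Mt-co1). Mt-co1 kept its call there without those libraries (-2.11, adjusted p = 3.87e-08), and Mt-co3 was at 0.28 without the libraries at its own lowest value (adjusted p = 0.501). For the progenitors 0 of the 10 features were called by limma and 1 had an unadjusted p under 0.05, where 2.1% of all features were called. That feature was Mt-nd6, at 9.46 in BN-Lx/Cub and 11.55 in SHR/OlaIpcv (-2.09, -3.33 to -0.86, adjusted p = 0.0530). With batch in the model its difference was -0.70 (limma adjusted p = 0.774), and 1.08% of all features were called. The progenitors shared no batch there, so that fit compares them through other strains only. The library labelled BN-Lx/Cub 3 is also another one than in the Ensembl table, of batch 4 in place of batch 6.

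The reconstruction divides the mitochondrial genome differently from the Ensembl genes. It holds 41 features on chromosome MT, of which 10 lie on the minus strand and carry the name of Mt-nd6, and 31 lie on the plus strand under the name of a ribosomal RNA gene. The span of each of the 10 transcripts was shared by 5 to 13 features on its own strand, with 5 for Mt-nd4, Mt-nd5 and Mt-cyb and 12 for Mt-co1. Of the 17 plus-strand features that span several genes, 7 were called higher and 5 lower in HXB, with differences from -3.93 to 5.90. Over all features 0.3% were called higher and 0.234% lower. Of the 10 minus-strand features 5 were higher and 2 lower in HXB, against the same shares, with differences from -3.04 to 2.42. The minus-strand feature with the highest mean, at 14062 to 16312 outside the Mt-nd6 gene, was at 13.18 in HXB and 12.23 in BXH (difference 0.95, limma adjusted p = 5.09e-09). How reads were shared among these overlapping features was not tested, so feature levels within the reconstruction are uncertain.

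Later processing versions of the same families gave a smaller Mt-nd6 difference. In v6 Mt-nd6 was at 11.34 ± 0.32 in HXB (lowest 10.48, highest 11.69) and 10.74 ± 0.43 in BXH (lowest 10.12, highest 11.42), a difference of 0.60 (0.33 to 0.86). It had the smallest p of all genes, but its adjusted p was 0.998, and 0 of the 10 transcripts and 0 of 18644 genes were called by limma. At an unadjusted p under 0.05 there were 1 of the 10 transcripts and 4.02% of all genes. The families now overlapped: 9 of 20 HXB strains lay below the highest BXH strain. In the 87 libraries present in both versions Mt-nd6 moved by -0.40 from v5 to v6 in HXB and by 0.37 in BXH, while the other 9 transcripts moved by at most 0.24 in either family. In the v7.1 reconstruction, where 7 of the 10 transcripts could be matched, the Mt-nd6 difference was 0.77 (0.46 to 1.08, adjusted p = 0.793). There 0 of the 7 were called by limma, 1 had an unadjusted p under 0.05, and 0.00119% of all features were called. How the v6 and v7.1 values were normalized is not given in the sources used here, and whether normalization accounts for the smaller difference was not tested.

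**Figure D3:**
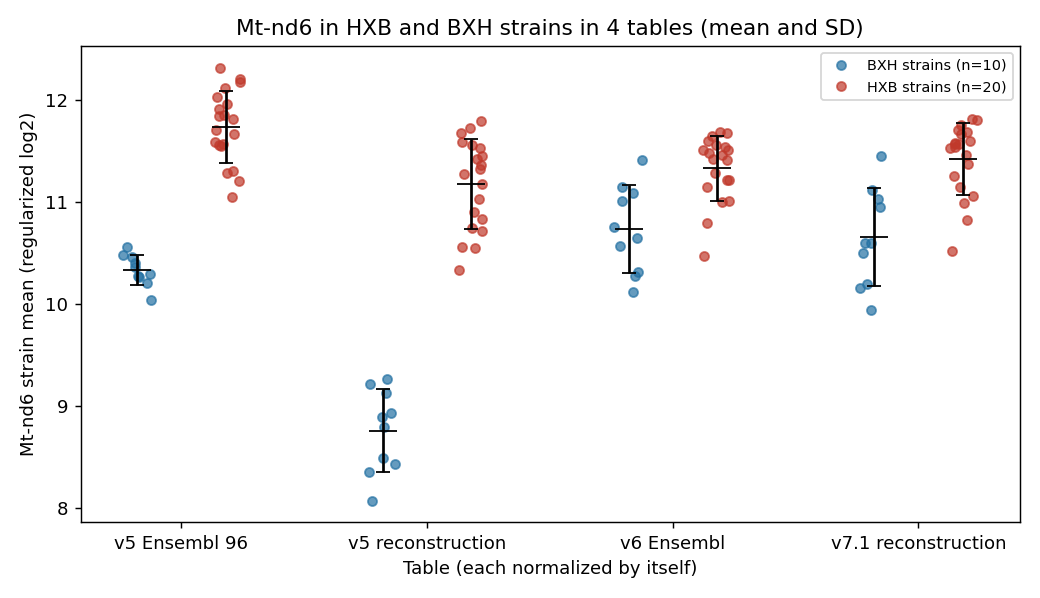
Mt-nd6 strain means (log2 scale of each table) of HXB and BXH strains in 4 deposited tables, 1 point a strain, with the mean and SD of each family as bars. The families do not overlap in the v5 Ensembl and v5 reconstruction tables, and they overlap in v6 and v7.1.

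In the LEXF and FXLE family 0 of the 7 matched transcripts differed between the directions of the cross by limma (12 LEXF against 7 FXLE strains), and 0 of all 84312 features were called. At an unadjusted p under 0.05 there were 3 of the 7 and 5.7% of all features. The difference of Mt-nd6 was 0.23 (LEXF minus FXLE, 95% interval -0.21 to 0.67, adjusted p = 0.931). The 3 with a small unadjusted p were all lower in LEXF by value: Mt-nd5 by 0.77 (interval -1.14 to -0.40, adjusted p = 0.577), Mt-nd2 by 0.48 and Mt-cyb by 0.39.

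In the Ensembl table the 9 plus-strand transcripts varied together, and Mt-nd6 followed them only in part. Over the 45 strain means Pearson's r among the 9 lay between 0.57 and 0.97 (median 0.81 of 36 pairs), whereas r of Mt-nd6 with the 9 lay between -0.05 and 0.38 (median 0.11). For deviations of the 132 animals from their own strain, the 9 had r between 0.28 and 0.97 (median 0.79), and Mt-nd6 with them between -0.01 and 0.60 (median 0.50). Mt-co1 was the loosest of the 9 within strains, at 0.28 to 0.62 with the other 8, which had r of at least 0.64 among themselves. A first principal component held 65.3% of the variance of the 10 transcripts over strain means and a second 29.3%; within strains the shares were 84.2% and 6.4%. These correlations are descriptions: the points share libraries, batches and the scaling of each library. In the reconstruction the 9 did not move as one. Over strains r among them ran from -0.41 (Mt-co1 with Mt-co2) to 0.96 with a median of 0.51, and within strains from -0.01 to 0.97 with a median of 0.64. Mt-nd6 with Mt-co1 had r = -0.53 over strains there.

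**Figure D4:**
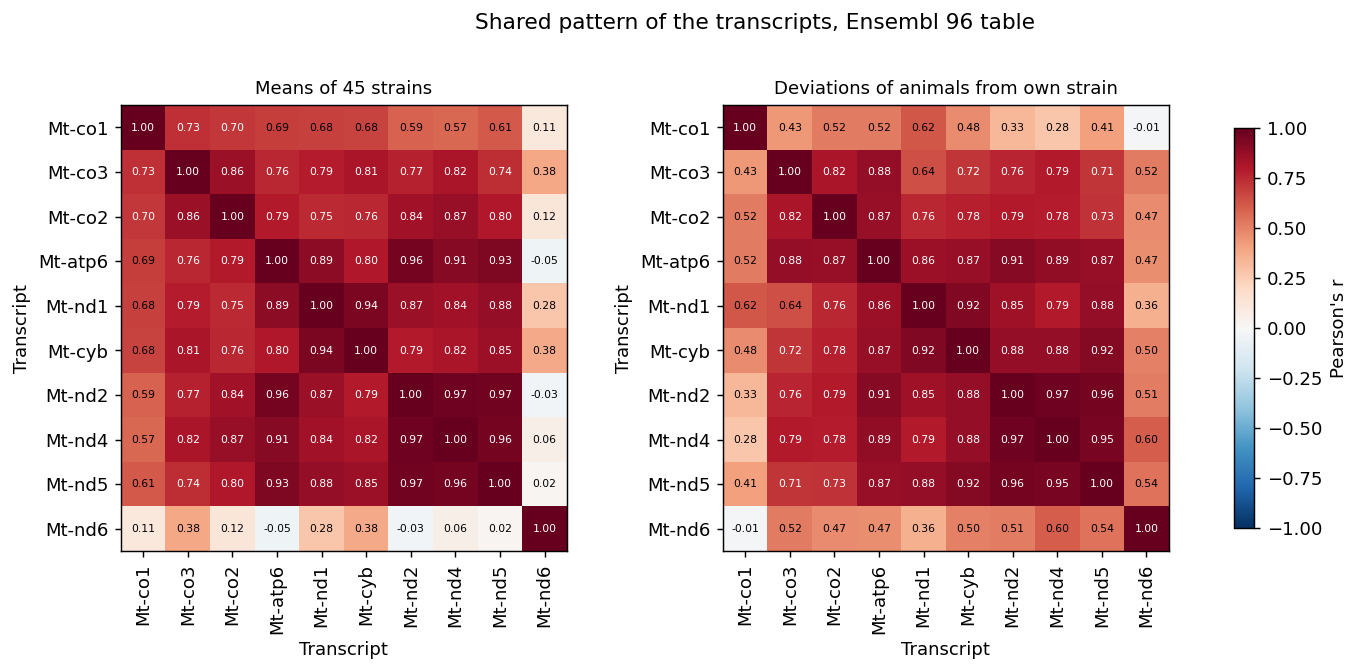
Pearson's r between each pair of the 10 transcripts in the Ensembl table, over the means of 45 strains (left) and over deviations of 132 animals from their strain mean (right). The 9 plus-strand transcripts correlate with each other at a median of 0.81 and 0.79, and Mt-nd6 correlates with them at a median of 0.11 and 0.50.

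Batch moved with the shared pattern. Within strains, batch accounted for a share of the variance between 0.352 (Mt-nd6) and 0.602 (Mt-nd1), where the median over all genes was 0.223, and 10 of 10 were called for batch by limma's F test, as were 55.9% of all genes. In the reconstruction 9 of the 10 were called for batch, as were 20.9% of all features, the exception being Mt-co1 (adjusted p = 0.107). In 6 HXB strains with animals in both batch 5 and batch 2, the difference (batch 5 minus batch 2) was -1.14 ± 0.41 (SD, n = 6 strains) for Mt-nd1, -1.14 ± 0.58 for Mt-nd2 and -1.04 ± 0.45 for Mt-nd5, each negative in 6 of 6 strains. Mt-nd4, Mt-cyb, Mt-co1 and Mt-co2 were also lower in 6 of 6, and Mt-co3 and Mt-atp6 in 5 of 6. Mt-nd6 differed by 0.04 ± 0.36 between the same animals and was lower in batch 5 in 3 of the 6 strains. Mt-nd6 did depart from its strain means in other batches, by 0.31 in batch 10 and by -0.29 in batch 8. Its call for batch depended on the source of the batch number: with the number in the sample title, which differs from the batch field in some samples, the share of batch was 0.0684 (adjusted p = 0.702). Another of the 10 also lost its batch call in the Ensembl table under an alternative.

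**Figure D5:**
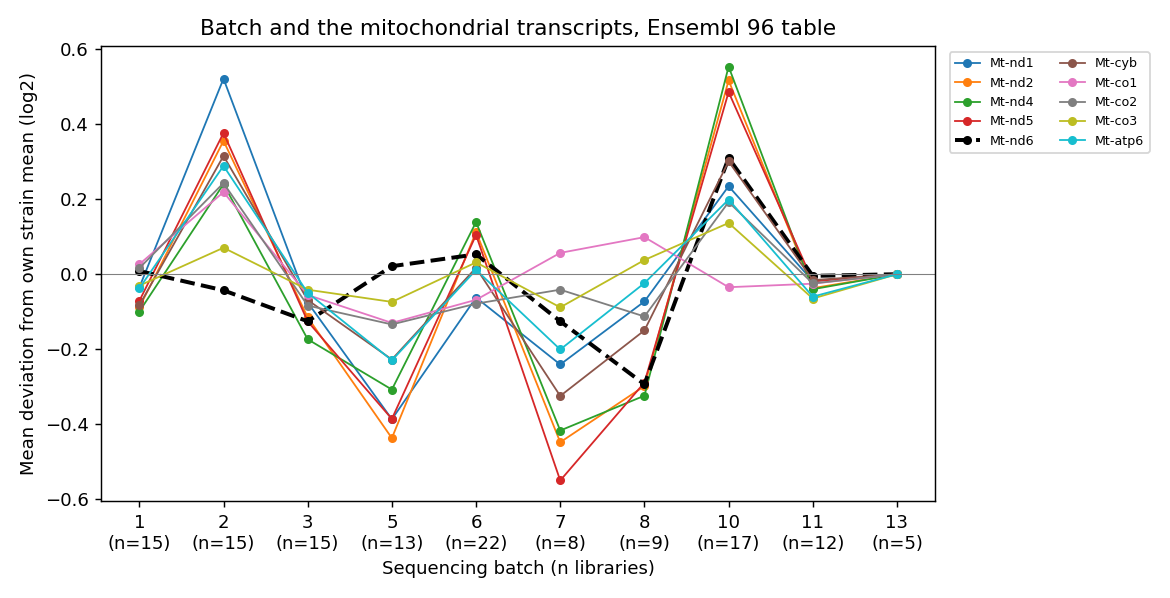
Mean deviation from the strain mean (log2, Ensembl table) of each transcript in each sequencing batch; batch 9, with 1 library, is left out, and batch 13 is at 0 because its strains are in no other batch in that table. Mt-nd1 is at 0.52 in batch 2 and at -0.39 in batch 5, and Mt-nd6 is at -0.04 and 0.02 there.

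The ribosomal RNAs of the same genome also varied with batch, and the study's methods state that ribosomal depletion was repeated in later batches. Batch means of the small ribosomal RNA ran from 20.74 to 21.75 and those of the large one from 23.01 to 23.71. Within strains the mean of the 9 plus-strand transcripts had r = 0.48 with the small and 0.40 with the large ribosomal RNA over 132 libraries, and Mt-nd6 had 0.57 and 0.07. The part of the depletion in the batch pattern was not tested. Between HXB and BXH the large ribosomal RNA was lower in HXB by 0.28 (interval -0.38 to -0.17, limma adjusted p = 0.00058), and the small one differed by -0.02 (adjusted p = 0.872). Of the protein genes of this genome that are not among the 10, Mt-nd3 of complex I was higher in HXB by 0.22 (0.11 to 0.33, adjusted p = 0.00597), and Mt-atp8 (-0.17, adjusted p = 0.468) and Mt-nd4l (-0.09, adjusted p = 0.758) did not pass. These differences were taken on strain means without batch in the model, and the families were sequenced in different batches. The large ribosomal RNA and Mt-nd3 both varied with batch within strains (limma F test, adjusted p = 0.00038 and 0.0039).

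Nuclear genes of oxidative phosphorylation were examined as a list chosen by the start of the symbol. Most are named for subunits of the same complexes. The list also holds Sdha, Sdhb, Sdhc and Sdhd of complex II, the assembly factors Sdhaf2 and Sdhaf3, and Uqcr10-ps1, named as a pseudogene. The list held 74 symbols and 77 gene entries, since Ndufb2, Ndufv3 and Uqcrb have 2 entries each. Of the 77 entries, 20 were higher and 2 lower in HXB, against 6.92% higher and 6.95% lower over all genes; with batch in the model the counts were 7 and 0, against 3.1% and 4.26%. The differences were small, with a median of 0.05 over the list. Uqcr10, a small subunit of complex III, was higher by 0.28 (limma adjusted p = 0.000169; 0.29 with batch, adjusted p = 0.0136). One entry of Uqcrb, of the same complex, was higher by 0.25 (adjusted p = 0.00604), but was not called with batch in the model (adjusted p = 0.486), and the other was not called (0.05, adjusted p = 0.581). Cox5a of complex IV and one entry of Ndufb2 of complex I were lower by 0.06 and 0.08, and neither was called with batch; the other entry of Ndufb2 was not called (-0.02, adjusted p = 0.824). How reads were shared between entries of one name was not tested, so the values of Uqcrb and Ndufb2 are uncertain. Over the 45 strains the list's genes had r between -0.76 and 0.65 with the mean of the 10 transcripts (median -0.10).

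Of 36 measured genes that replicate, transcribe, process or translate the mitochondrial genome, 3 were higher and 4 lower in HXB, shares close to the 6.92% and 6.95% over all genes. Twnk, the replicative helicase, was higher by 0.14 (limma adjusted p = 0.0105), and Ssbp1, the single-stranded DNA binding protein, by 0.12 (adjusted p = 0.00695); with batch in the model neither was called (0.05, adjusted p = 0.548, and 0.09, adjusted p = 0.233). Polrmt, the mitochondrial RNA polymerase, was lower by 0.11 (adjusted p = 0.0145), and Mtpap, the mitochondrial poly(A) polymerase, by 0.09 (adjusted p = 0.00431). With batch in the model 2 were higher and 2 lower, against 3.1% and 4.26% over all genes, Mtpap among the latter (-0.11, adjusted p = 0.00975) but not Polrmt (-0.05, adjusted p = 0.402). Of 6 nuclear regulators of mitochondrial gene expression 0 were called by limma, and 0 had an unadjusted p under 0.05, against 13.9% and 27.5% of all genes.

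Markers of brain and other cell types gave overlapping HXB and BXH strain means for every list. Mean levels of 4 neuronal markers were 13.49 to 13.77 in HXB and 13.57 to 13.72 in BXH, and 1 of the 4 was lower in HXB. Those of 5 oligodendrocyte markers were 14.53 to 14.97 and 14.34 to 14.95, with 1 of 5 higher in HXB, and 3 of 5 with batch in the model. Among 3 endothelial markers 1 was lower in HXB. Of the 5 astrocyte, 5 microglial, 4 choroid plexus, 4 blood and 4 liver markers 0 were called by limma, with 0, 2, 2, 0 and 1 at an unadjusted p under 0.05. Over all genes 13.9% were called, 27.5% had an unadjusted p under 0.05, and 3.1% were called higher in HXB with batch in the model. Their part in the mitochondrial values was not tested.

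Nuclear genes were ranked by how far their strain means followed the mean of the 10 transcripts. Among 8589 nuclear genes with a symbol and a mean level over the table's median, Pearson's r over 45 strains was highest for Kmt2e (0.85), Qser1 (0.85) and Atxn7l1 (0.83), and lowest for Ctbp1 (-0.89), Actr1a (-0.80) and LOC100361457 (-0.80). In all, 355 genes had r over 0.5 and 448 under -0.5. These points share libraries, batches and library scaling, as above.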

How the data were processed

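Brain total RNA was sequenced by the study in stranded, ribosome-depleted libraries. Per the submitters' processing notes, reads were trimmed with cutadapt 1.9.1, cleared of ribosomal reads with Bowtie2 2.3.4.3, aligned with HISAT2 2.1.0 to strain-specific versions of rn6, assembled with StringTie 1.3.5 and quantified with RSEM 1.3.1 (later samples: Bowtie2 2.4.5, HISAT2 2.2.1, StringTie 2.2.1, RSEM 1.3.3); the study's methods give the same steps and another version of RSEM. Whether the mitochondrial sequence was made strain-specific and whether counting used strand are not given in the sources used here. The authors removed 1 factor of unwanted variation in v5 and deposited log2 values from the regularized log transformation of DESeq2. Columns of the reconstruction tables with values over 30, which no log2 count reaches, were treated as a deposited score on the same scale; 24 of the v5 features hold such a value. The deposited annotation gave the other values used, feature starts and ends.

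Depth is unknown, and no counts were available to these tests; the number of animals limits the precision. Groups, replicate numbers and batches came from the labels. The p-values weigh each difference against the spread between these animals or strains. For the progenitors this was the spread within strains, shared over all strains.

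Tests were made with limma 3.58.1 in R 4.3.3 on each whole table, with Benjamini-Hochberg adjustment over all its features at 0.05: an F test of strain over animals, an F test of batch within strains, HXB against BXH on strain means and BN-Lx/Cub against SHR/OlaIpcv within the fit of all strains. Animals with strain as a random block used the correlation estimated from 5000 features. Alternatives were batch, replicate number or median scaling in the model, a filter on low features, and leaving out animals. The steps were tested on simulated data. Pairing by replicate number was checked: over all libraries the median correlation of deviations was 0.03 for the same number and -0.01 for different numbers, and for the progenitors it was -0.49, -0.47 and 0.07, so the numbers were not taken to pair animals.

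The transcripts and gene lists were chosen with earlier results of these data known. All 10 transcripts were named, with other features of chromosome MT whose mean exceeded that of the lowest of the 10, the 3 nuclear genes most and least like their mean, and the 2 called genes of each list with the largest difference each way. That rule took the feature of highest mean for Mt-nd6, at 14062 to 16312, which is given here only by its HXB and BXH levels. All other Mt-nd6 values of the reconstruction are of the feature at the gene's own coordinates, a choice made after values were seen. The other 9 features were matched by start, with ends within 20 bases. Symbols were paired with 88.5% of Ensembl rows (16264), from the later deposited annotation. The v7.1 RefSeq table, planned for LEXF and FXLE, has no row for these transcripts, so the v7.1 reconstruction was used. In v6, 89 columns were not used, and in v7.1, 85 were not.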

Additional observations from a re-analysis of the deposited data

Results flagged for a closer look

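Of 34 groups of 4 to 10 strain means that were screened for a strain standing apart by Dixon's criterion, 2 held one, where chance alone picks out about 1 group in 20. In the reconstruction table BXH2/Cub was at 15.42 for Mt-co3, below the next BXH strain at 16.31, and the highest was at 17.05. Its mean rested on 1 library at 11.99, a lowest value shared with 2 libraries of other strains, while its other animals were at 16.85 and 17.42. In the v7.1 reconstruction FXLE13/Stm was at 13.69 for Mt-nd5, above the next FXLE strain at 12.76, and the lowest was at 12.61.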

How the results depend on the processing

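The Mt-nd6 difference between HXB and BXH in the Ensembl table stayed between 1.09 and 1.49 under all alternatives within v5, with an adjusted p of at most 4.58e-06, and was 0.60 in v6. No called value reversed; values that did not pass changed sign under some alternatives. With batch in the model the transcripts called for strain went from 9 to 2 in the Ensembl table and from 9 to 4 in the reconstruction, and to 3 there with the batch number of the title. Leaving out 1 replicate number gave 1 to 8 called in the Ensembl table, where 35.4% to 63.9% of all genes were called. In the reconstruction it gave 1 to 9, where 12.2% to 36.7% of all features were called. The HXB and BXH count in the Ensembl table went from 2 to 1 with either batch number in the model and to 0 in v6. In the reconstruction it went from 4 to 2 with the title's number and to 0 in v7.1; with batch in the model and without the libraries at the lowest shared value of Mt-co1 or of Mt-co3 it was 2. The batch count in the reconstruction went from 9 to 5 with the title's number. Between the progenitors the Ensembl count was 1 to 2 when 1 animal was left out (2 without SHR/OlaIpcv 2). The reconstruction count went from 0 to 1 when features below the median were left out. The cause of these changes was not tested. Chosen after seeing the data were the within-batch values, the v7.1 table and the alternatives without libraries low in Y-linked genes, closest to another strain, highest in liver markers, at a shared lowest value, or labelled BXH13/Cub 1 and HXB2/Ipcv 1 (2 and 4 called in the Ensembl and reconstruction tables, as with them).

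A replicate block changed 1 call: Mt-nd6 between the progenitors in the reconstruction went from an adjusted p of 0.0530 to 0.0353, so that 1 of the 10 was called. Between HXB and BXH in the reconstruction, taking animals with strain as a random block in place of strain means left Mt-co3 at 0.55 without its call (adjusted p = 0.0529, and 0.0593 with a replicate block added) and Mt-atp6 at -0.48 with one (adjusted p = 0.0303, and 0.0429). With the block Mt-nd6 differed between HXB and BXH by 1.39 in the Ensembl table and 2.39 in the reconstruction. The check of deviations gave no sign that the numbers pair animals. Leaving out values over 30 could not be tried in the Ensembl table, which has none, and the v7.1 RefSeq table was not run.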
